A study of Mus musculus with 110 samples.

Results

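Untreated cells of a CTCF degron line were compared with untreated cells of the parental line, with 12 libraries of the first (JH4_CTCFdegron_NT, a and b, replicates 1 to 6) and 8 of the second (JH4_parental_NT, a and b, replicates 1 to 4). They were chosen by title and make up 20 of the 110 samples of the series, and 20 of its 98 full junction libraries. Both lines are v-Abl transformed mouse pro-B cells of genotype Emu-Bcl2, RAG2 deficient, and the degron line carries CTCFdegron in addition. Both received RAG2 by nucleofection and 3 µM STI-571, an Abl kinase inhibitor, for 4 days, and neither received the auxin IAA. Recombination was read by linear amplification from a bait at JH4, and a read that spans the bait and a distant (prey) site is 1 junction. Lines with 1 part of the system each, labelled CTCF-mAID-GFP tagging and OsTIR1 only (8 libraries each), and the degron line with IAA (12 libraries) are given for reference. The treatment labels of 9 of those 12 list 500 µM IAA for 6 h and then together with STI-571, while 3 libraries of replicates 4 and 5 are IAA by title and list none. The replicate number is the unit, and its a and b libraries are combined. Whether a line is 1 clone, and whether replicates are separate cultures, is not given in the sources used here, so the p-values measure the spread between these replicates, which may be technical. The question the design poses is whether the degron line differs from its parent without IAA. The CTCF level was not measured in these libraries.

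V(D)J recombination at Igh joins a D segment to a JH segment and then a VH segment to the DJ join. CTCF is a zinc-finger DNA-binding protein that halts cohesin as it extrudes chromatin loops. CTCF sites lie beside many D-proximal VH segments and in IGCR1, the control region between the VH and D segments. In v-Abl lines D-proximal VH segments dominate, because the locus does not contract as in bone marrow pro-B cells. A degron tag lets a protein be broken down when auxin and OsTIR1, a plant F-box protein, are both present.

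The prey letters beside the recombining ends are shown for the D and VH segments that the results turn on. Letters are 5′ to 3′, reading away from the join. For the D segments, capitals mark the coding bases, and the lower case that follows begins with the heptamer of the recombination signal.
Ighd4-1: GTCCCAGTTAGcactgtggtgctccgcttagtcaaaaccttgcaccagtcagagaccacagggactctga
Ighd3-2-like: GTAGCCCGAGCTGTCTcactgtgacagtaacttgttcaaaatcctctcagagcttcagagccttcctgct
Ighd1-1: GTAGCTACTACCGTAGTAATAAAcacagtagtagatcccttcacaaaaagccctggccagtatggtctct
Ighd4-1 (DQ52) is the D segment nearest JH, at hybrid position 114673089 and chr12:114668739-114668749 of mm9. The Ighd3-2-like D, at position 114687612, matches Ighd3-2 of mm9 with 92.1% identity. Ighd1-1 (DFL16.1) is the D segment used most, at position 114734544 and chr12:114720381-114720403 of mm9. Each mm9 interval is the coding exon of that segment.

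For the VH segments, capitals mark the reverse complement of the tyrosine and cysteine codons that close framework 3.
Ighv5-2: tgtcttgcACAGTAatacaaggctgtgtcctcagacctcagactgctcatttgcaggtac
Ighv2-2-like: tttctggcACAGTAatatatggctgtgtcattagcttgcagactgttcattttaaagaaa
Ighv5-12: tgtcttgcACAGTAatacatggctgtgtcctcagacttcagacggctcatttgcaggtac
Ighv1-76-like: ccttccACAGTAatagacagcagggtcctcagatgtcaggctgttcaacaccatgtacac
Ighv1-67: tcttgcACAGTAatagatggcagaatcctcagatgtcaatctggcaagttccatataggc
Ighv5-2 (VH81X) lies at position 114836377 and matches chr12:114816715-114817201 of mm9 with 100.0% identity. The Ighv2-2-like segment at 114846142 matches Ighv2-2 with 99.7% identity. The Ighv1-76-like segment at 116240676 matches no mm9 segment closely, with 83.2% identity to Ighv1-76. The first 2 lie at the D-proximal end of the VH region and fell in the degron line, and the last 3 lie deeper and rose, as described later.

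The degron replicates held 26375 to 58885 junctions each, 263632 in all, and the parental replicates 14866 to 231023, 488632 in all. All 6 degron replicates came from 1 sequencing run, as read names give it. Parental replicates 1 and 2 came from another run, shared with the tag-only line, and replicates 3 and 4 from yet another, shared with 2 OsTIR1-only replicates. No run held both lines, so line and run cannot be told apart in this comparison, and values against 1 parental run alone are given beside several results. Among VH joins with an insert of at least 10 bases, 0.162% to 0.403% of the joins of a degron replicate recurred in another degron replicate, and 0.386% to 4.51% in the parental replicates, highest in replicates 3 and 4. Of the same joins, 92.5% to 96.0% were distinct in the degron replicates, and 95.7%, 94.98%, 78.4% and 69.2% in parental replicates 1 to 4. The most frequent single join made up at most 0.513% of these joins in any degron replicate. In a libraries the reads carried TC between the same flanking bait letters and in b libraries ATAAGGGC, in both lines. This differs from the letters of bone marrow reads.
a libraries: ctcagaaaactccTCaaaggttaaaa
b libraries: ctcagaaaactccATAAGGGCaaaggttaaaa
bone marrow: ctcagaaaactccATAACaaaggttaaaa
Positions were shifted by 3 bases in opposite directions in a and b libraries, which was removed.

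The total use of VH segments differed by less than the spread between replicates. The VH share, meaning junctions in the VH region as a percent of all junctions, was 6.56%, 3.98%, 2.64%, 3.27%, 4.44% and 3.51% in degron replicates 1 to 6. In parental replicates 1 to 4 it was 3.46%, 4.31%, 5.50% and 5.18%. The groups overlapped, and degron replicate 1 was the highest of all. The means were 4.07% ± 1.37 (SD, n = 6) and 4.61% ± 0.918 (SD, n = 4), differing by −0.54 points. A two-sided exact permutation test gave p = 0.514 (Benjamini-Hochberg 0.635 over 42 measures). The direction turned to 0.185 points against parental replicates 1 and 2 alone. With 6 against 4 replicates the smallest p is 0.00476.

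**Figure D1:**
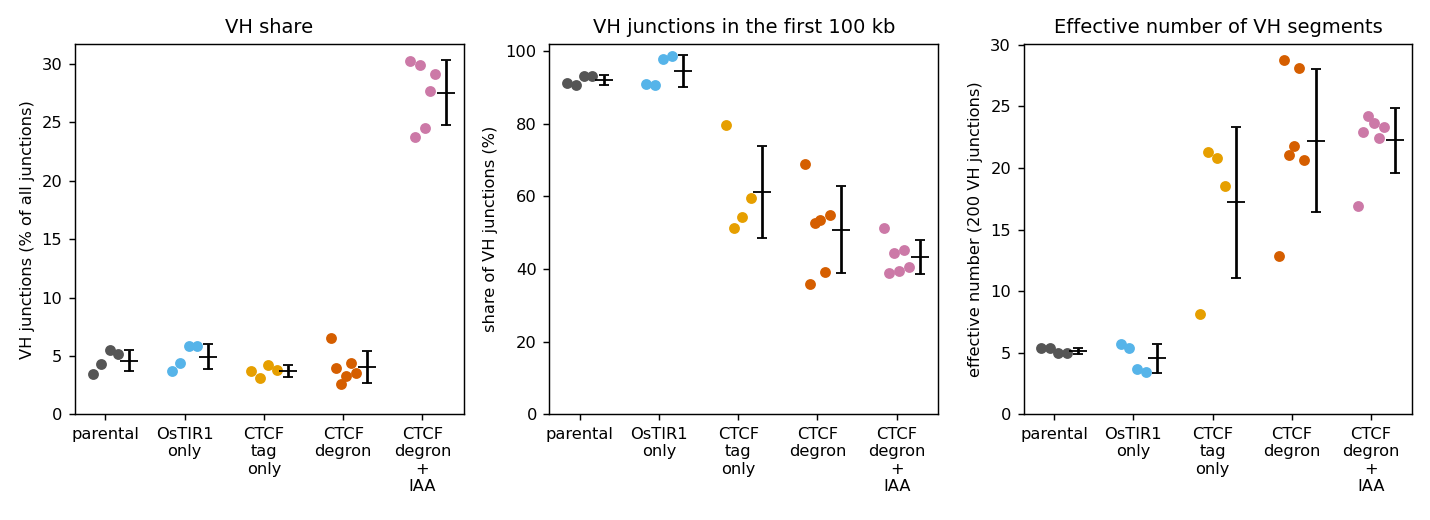
The VH share (percent of all junctions), the share of VH junctions within the first 100 kb (percent) and the effective number of VH segments among 200 VH junctions are plotted by group, with 1 point per replicate and the mean ± SD as a black bar. Untreated degron replicates overlap the parental replicates in VH share, and none overlaps them in the other measures.

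Where the VH junctions lay differed. Within the first 100 kb from the most D-proximal VH segment lay 68.9%, 35.8%, 52.7%, 53.4%, 39.3% and 55.003% of the VH junctions of degron replicates 1 to 6. In the parental replicates the same share was 91.1%, 90.6%, 93.1% and 93.1%. Every degron replicate was below every parental replicate. The means were 50.9% ± 11.9 (SD, n = 6) and 92.0% ± 1.31 (SD, n = 4). The degron mean was thus lower, at −41.1 points relative to the parental mean, by the exact permutation test (p = 0.00476, Benjamini-Hochberg 0.0286). The mean was 90.9% over parental replicates 1 and 2 and 93.1% over replicates 3 and 4.

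Beyond the first 100 kb the degron shares were higher in every interval. From 100 to 500 kb lay 20.2% ± 2.29 of VH junctions in the degron line and 3.77% ± 0.741 in the parental line (SD, n = 6 and n = 4, exact permutation p = 0.00476, Benjamini-Hochberg 0.0286). From 500 to 1200 kb the shares were 6.61% ± 1.79 and 1.44% ± 0.723, with the same p and adjusted value. From 1200 to 2000 kb they were 13.0% ± 5.23 and 1.44% ± 0.216 (SD, n = 6 and n = 4, exact permutation p = 0.00952, Benjamini-Hochberg 0.05), and beyond 2000 kb 9.36% ± 3.99 and 1.35% ± 0.244 (exact permutation p = 0.0143, Benjamini-Hochberg 0.0545). The last 2 differences did not pass an adjusted threshold of 0.05, although the groups did not overlap. Degron replicates 2 and 5 had the highest shares in both of those intervals, at 19.2% and 18.8%, then 14.0% and 13.1%, and replicate 1 the lowest, at 5.80% and 2.89%.

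As a percent of all junctions, the first 100 kb held 2.13% ± 1.17 in the degron line and 4.25% ± 0.898 in the parental line (SD, n = 6 and n = 4, exact permutation p = 0.0286, Benjamini-Hochberg 0.075). Degron replicate 1, at 4.48%, lay inside the parental range of 3.15% to 5.12%, and the other 5 degron replicates lay between 1.37% and 1.94%. The parental runs differed here, with means of 3.52% in replicates 1 and 2 and 4.97% in replicates 3 and 4. Against replicates 1 and 2 alone the difference was −1.40 points in place of −2.12 (exact permutation p = 0.143). The 100 to 500 kb interval held 0.823% ± 0.242 against 0.172% ± 0.0364, a ratio of means of 4.79 (exact permutation p = 0.00476, Benjamini-Hochberg 0.0286). The interval from 1200 to 2000 kb held 0.501% ± 0.229 against 0.0656% ± 0.00526, a ratio of means of 7.64 that did not pass the adjusted threshold (exact permutation p = 0.0143, Benjamini-Hochberg 0.0545).

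**Figure D2:**
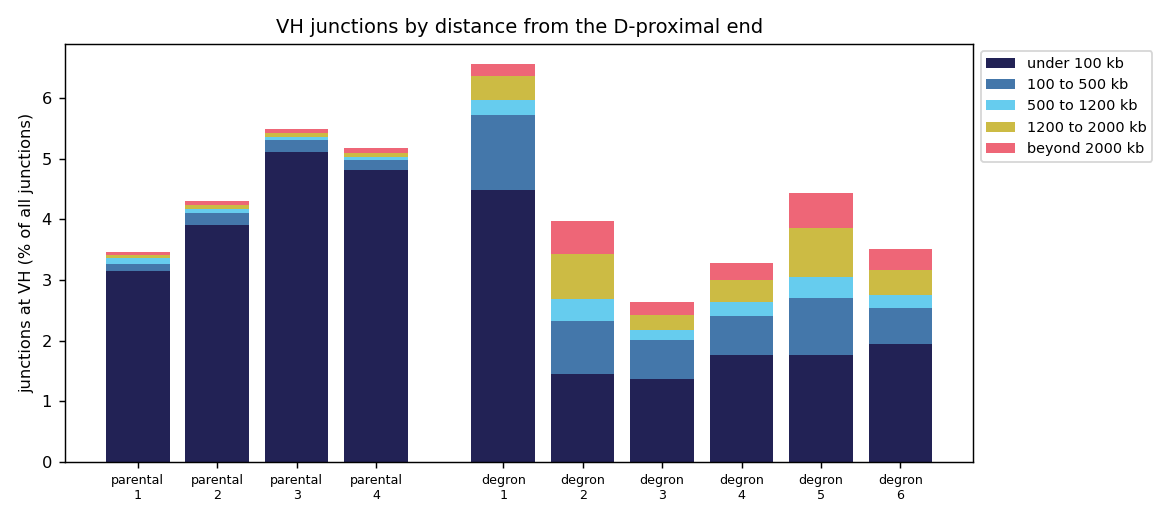
VH junctions as a percent of all junctions are stacked by distance from the most D-proximal VH segment, with 1 bar per replicate. The dark first 100 kb makes up most of each parental bar, while the intervals beyond it are larger in every degron bar.

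The spread of use over segments can be put as an effective number, the exponent of the Shannon entropy over VH segments after each library was thinned to 200 VH junctions. It was 12.9, 28.8, 21.1, 21.7, 28.1 and 20.6 in degron replicates 1 to 6 and 5.39, 5.39, 4.95 and 4.99 in parental replicates 1 to 4. The groups did not overlap. The means were 22.2 ± 5.82 (SD, n = 6) and 5.18 ± 0.241 (SD, n = 4), a ratio of 4.29 (exact permutation p = 0.00476, Benjamini-Hochberg 0.0286). The spread among degron replicates was far wider than among parental replicates. Replicate 1, with the highest share of its VH junctions in the first 100 kb, had the lowest effective number of the 6, and replicates 2 and 5, with the lowest shares there, the highest.

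Single segments were tested with limma on shares of all junctions. Of 177 segments, 32 had a mean of at least 10 junctions per replicate over both lines and were tested, 18 of 149 VH and 14 of 28 D. Of these, 19 passed a Benjamini-Hochberg adjusted p of 0.05, 15 higher and 4 lower in the degron line, which is 59.4% of the tested segments (46.9% higher and 12.5% lower). Among the VH segments 13 were higher, 3 were lower and 2 did not pass, with a median log2 change of 2.13 beside 0.16 over all tested segments. A deep segment could enter the test through the line in which it was used more, so the tested segments are not a sample of all VH segments. The replicate shares of 12 of the 32 tested segments (37.5%) did not overlap between lines. Scaling by median of ratios in place of library totals gave 23 calls, 14 higher and 9 lower, of which 17 were shared with the 19 in the same direction, and moved the median to 0.06.

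The 3 lower VH segments were the 3 nearest the D segments. Ighv5-2, the most used VH of both lines, held 1.41%, 0.348%, 0.401%, 0.484%, 0.465% and 0.659% of junctions in degron replicates 1 to 6 and 1.80%, 2.19%, 2.61% and 2.33% in parental replicates 1 to 4. The groups did not overlap, and degron replicate 1 was the nearest to the parental values. Its mean was 0.627% ± 0.396 (SD, n = 6) against 2.23% ± 0.336 (SD, n = 4), which is 3.56-fold lower, with a log2 change of −2.07 ± 0.25 (SE, limma adjusted p = 2.27e-13). The Ighv2-2-like segment at 114846142 held 0.266% to 0.724% in the degron line and 0.596% to 1.39% in the parental line. These ranges overlapped through degron replicate 1, and the log2 change was −1.62 ± 0.29 (limma adjusted p = 1.22e-07). Against parental replicates 1 and 2 alone it was −0.97 (limma adjusted p = 0.0718).

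The first VH segment of the region, at 114830805 (closest to Ighv5-9 of mm9, 91.5% identity), held 0.0563% to 0.110% in the degron line and 0.114% to 0.184% in the parental line. Its log2 change was −0.88 ± 0.35 (limma adjusted p = 0.0199). The call was lost without degron replicate 2 (limma adjusted p = 0.0666), without parental replicate 3 (0.101) and without parental replicate 4 (0.106). It was also lost against parental replicates 1 and 2 alone (limma adjusted p = 0.472), with a libraries only (0.121) and with a replicate block (0.0987). The next segments along the locus did not pass. The Ighv5-4-like segment at 114855361 had 0.282% ± 0.205 (SD, n = 6) and 0.342% ± 0.0942 (SD, n = 4), with a log2 change of −0.58 (limma adjusted p = 0.103). Without degron replicate 1, which held 0.694% there, the change was −0.78 (limma adjusted p = 0.00529). It was also called lower with b libraries only (−0.86, limma adjusted p = 0.0238), with identical junctions counted once (−1.11, 0.0144) and with median-of-ratios scaling (−0.77, 0.0294), and in no other alternative. The limit between the falling segments and the next is thus not sharp. Ighv2-3 had 0.397% ± 0.143 and 0.303% ± 0.0418 (log2 change 0.26, limma adjusted p = 0.469), and it turned to −0.31 with identical junctions counted once. Ighv5-6, 52.6 kb from the first VH, was higher by 0.96 on the log2 scale (limma adjusted p = 0.00671) with overlapping replicates. Ighv5-6 fell outside the naming rule and was named after its values were seen. The Ighv2-2-like, Ighv5-4-like and Ighv2-3 segments, whose replicates also overlapped, were named as among the 4 most used VH of a line. That rule was set with earlier results of these data known.

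**Figure D3:**
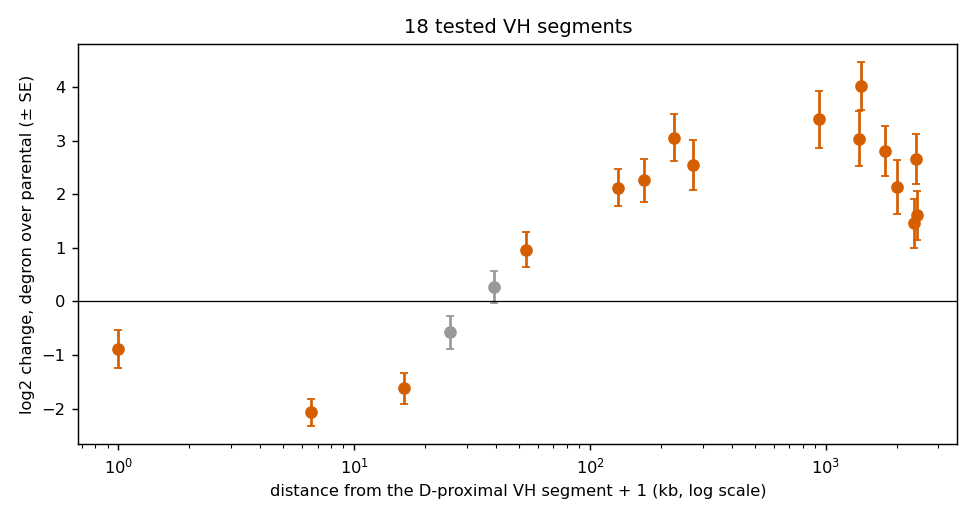
The log2 change of each tested VH segment (degron over parental, ± SE) is plotted against its distance from the most D-proximal VH segment plus 1 kb on a log scale, with coloured points past an adjusted p of 0.05 and grey points not. The 4 nearest segments lie below 0, the first 3 of them coloured, and every tested segment from 52.6 kb on lies above 0.

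From 100 kb on, all 12 tested VH segments were higher. Ighv5-12, 131 kb from the first VH, was used more in the degron line, by mean share, than every VH but Ighv5-2 and Ighv2-3. It held 0.580%, 0.414%, 0.299%, 0.286%, 0.489% and 0.260% in degron replicates 1 to 6 and 0.0625%, 0.0874%, 0.0952% and 0.0808% in the parental replicates. Every degron replicate exceeded every parental replicate, by a ratio of means of 4.76 and a log2 change of 2.12 ± 0.34 (SE, limma adjusted p = 1.08e-08). The next 3 called segments were all closest to Ighv5-9 of mm9. The segment at 114998635 had 0.150% ± 0.0562 (SD, n = 6) against 0.0281% ± 0.00839 (SD, n = 4), with a log2 change of 2.26. The segment at 115055836 had 0.0907% ± 0.0280 against 0.00970% ± 0.00352, with a log2 change of 3.06. The segment at 115103579 had 0.0427% ± 0.00495 against 0.00740% ± 0.00598, with a log2 change of 2.54. The largest limma adjusted p of these 3 was 3.46e-07. These segments are so alike in sequence that reads may be split between them by the alignment.

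The largest change was at the Ighv1-76-like segment, 1410 kb from the first VH. It held 0.205%, 0.274%, 0.0583%, 0.112%, 0.235% and 0.115% of junctions in degron replicates 1 to 6, and 0%, 0%, 0.0152% and 0.0195% in the parental replicates. Parental replicates 1 and 2 had no junction there among 17607 and 14866, which allows shares of up to 0.0170% and 0.0202% (3 counts, counting error only), and the other parental replicates had 79 between them. The ratio of means was 19.2 and the log2 change 4.01 ± 0.45 (SE, limma adjusted p = 2.54e-15). Ighv1-9, 1381 kb away, had 0.0347% ± 0.0188 (SD, n = 6) against 0.00240% ± 0.00296 (SD, n = 4), a log2 change of 3.04. Ighv1-47, 1789 kb away, had 0.0552% ± 0.0217 against 0.00651% ± 0.00458, a log2 change of 2.80. Ighv1 is the largest VH family (J558). All 5 of its 65 segments that were tested were higher, with a median log2 change of 2.80, as was every tested VH beyond 100 kb, beside 46.9% of all tested segments. Segments could enter the test through their degron counts, so these counts do not describe the untested members of the family.

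At the far end, Ighv1-67 (2402 kb) held 0.0569%, 0.0512%, 0.0255%, 0.0403%, 0.0602% and 0.0323% in degron replicates 1 to 6 and 0.00568%, 0.00673%, 0.00519% and 0.00622% in the parental replicates. The groups did not overlap, and the log2 change was 2.66 ± 0.46 (SE, limma adjusted p = 1.20e-07). Ighv8-11 (2365 kb) had 0.0345% ± 0.0113 (SD, n = 6) against 0.0105% ± 0.00524 (SD, n = 4), with a log2 change of 1.46 (limma adjusted p = 0.00324). The call at Ighv8-11 was lost with identical junctions counted once (limma adjusted p = 0.0885). Of the Ighv5 family, 5 of 8 tested members were higher, 2 lower and 1 did not pass, beside 13 higher and 3 lower of the 18 tested VH segments. Both tested Ighv8 members were higher.

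**Figure D4:**
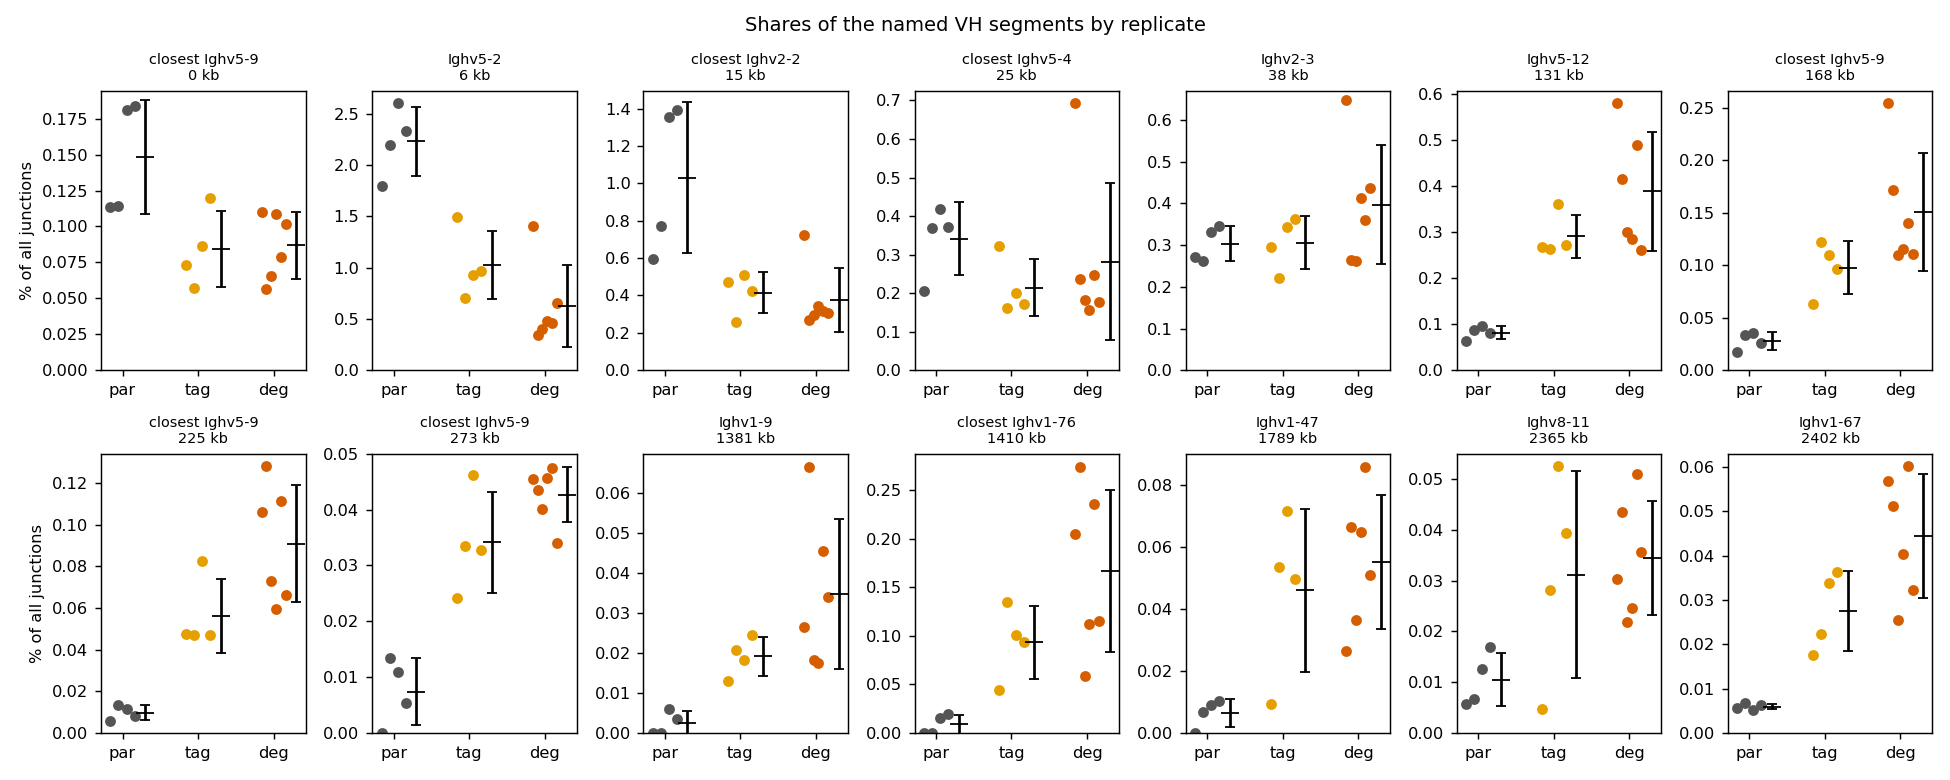
Shares of all junctions (percent) at the 14 named VH segments are plotted for the parental (par), CTCF-tag-only (tag) and untreated degron (deg) lines, with 1 point per replicate, the mean ± SD as a black bar and the distance from the first VH in the title. At Ighv5-12 the tag-only replicates, from 0.264% to 0.360%, lie above every parental replicate, which reach 0.0952%.

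The same fit within VH junctions, in which each segment is scaled to the VH junctions of its replicate, called 17 of 18 VH segments (94.4%), 14 higher and 3 lower. All 16 VH segments called on the scale of all junctions were called here too, in the same direction, and the one added was Ighv2-3, with a log2 change of 0.55. Ighv5-2 changed by −1.77 and the Ighv1-76-like segment by 4.00 on this scale. Shares of VH junctions sum to a whole, so a fall at Ighv5-2 by itself raises the shares of other segments. Under median-of-ratios scaling the within-VH fit called 14 of 18 segments, 9 of them upward and 5 downward. The median over the 18 segments was then 1.10 on the log2 scale, in place of 2.47. The number of rising segments on this scale thus depended on the scaling.

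Beside many D-proximal VH segments mm9 holds a match to CTCF-type letters, namely CC, any 3 bases, AG, any 2 bases and GGC. They are shown with the recombination signals of 3 segments whose changes differ, in mm9 and in the direction of the VH gene. Capitals mark the heptamer, the nonamer after a 23-base spacer, and the CTCF-type letters.
Ighv5-2, chr12:114816639-114816714, minus strand: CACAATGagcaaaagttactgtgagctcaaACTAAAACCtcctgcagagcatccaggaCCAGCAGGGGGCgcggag
Ighv2-3, chr12:114849317-114849394, minus strand: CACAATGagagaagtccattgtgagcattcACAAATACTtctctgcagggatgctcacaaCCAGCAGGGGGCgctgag
Ighv5-12, chr12:114940259-114940334, minus strand: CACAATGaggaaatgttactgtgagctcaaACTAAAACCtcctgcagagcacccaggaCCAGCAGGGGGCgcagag
The letters were searched on both strands in the 139 bases past the annotated mm9 gene end, for the 48 VH segments that match mm9 with over 98% identity. They occurred at 18 of them (37.5%), always on the VH gene's strand and beginning 58 to 66 bases past that annotated end. At offsets of 65 and 66 the first 7 bases past the annotated end were AGACACA or GATGCAC. These do not start as a heptamer does, so those offsets are not counted from the recombining end. Of all 139-base windows of the mm9 VH region, 0.971% held the letters. None of the 23 such segments beyond 1200 kb had the letters. Segments with the same closest mm9 gene share its window, and Ighv2-2, Ighv2-6 and Ighv5-9 each entered the 18 more than once. Some genes without the letters, such as Ighv11-2 and Ighv1-37, also entered more than once. The counts are thus of segments among the 48, not of separate mm9 windows. Of the 8 tested segments in this set, the 6 with the letters had log2 changes from −2.07 at Ighv5-2 to 3.06 at the Ighv5-9-like segment at 115055836, with 3 higher and 2 lower. The 2 without them, Ighv8-11 and Ighv8-12, were higher by 1.46 and 1.61. The letters are a description of this window in mm9 and do not show that CTCF binds there.

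Of the D segments 2 of 14 tested were higher, 1 was lower and 11 did not pass, with a median log2 change of −0.07. With median-of-ratios scaling 1 was higher and 5 were lower. Ighd1-1 carried most of the joins in both lines. Its share was 52.9%, 67.6%, 57.1%, 59.9%, 72.7% and 63.6% in degron replicates 1 to 6 and 61.5%, 60.7%, 60.3% and 60.2% in the parental replicates. The degron replicates lay on both sides of the narrow parental range. The means were 62.3% ± 7.18 (SD, n = 6) and 60.7% ± 0.571 (SD, n = 4), not different by the exact permutation test (p = 0.690, Benjamini-Hochberg 0.779). The Ighd2 family (DSP2 segments, the bulk of the middle of the D array) summed to 20.9% ± 5.86 and 24.8% ± 0.776 (exact permutation p = 0.271, Benjamini-Hochberg 0.345). Degron replicates 2 and 5 had the highest Ighd1-1 shares and the lowest Ighd2 sums, at 15.1% and 12.8%, and they were also the replicates with the most VH junctions beyond 1200 kb.

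The Ighd3-2-like D was the D segment whose replicates did not overlap. It held 1.11%, 1.41%, 1.22%, 1.21%, 0.910% and 0.969% in degron replicates 1 to 6 and 0.551%, 0.701%, 0.428% and 0.462% in the parental replicates. The means were 1.14% ± 0.185 (SD, n = 6) and 0.536% ± 0.122 (SD, n = 4), a ratio of 2.13 (exact permutation p = 0.00476, Benjamini-Hochberg 0.0286), and limma gave a log2 change of 1.17 ± 0.27 (adjusted p = 6.63e-05). Against parental replicates 1 and 2 alone the limma change was 0.86 (adjusted p = 0.102). Ighd4-1 held 6.84%, 8.05%, 10.9%, 8.35%, 6.21% and 7.67% in degron replicates 1 to 6 and 5.87%, 6.89%, 4.95% and 4.88% in the parental replicates. These overlapped, and only parental replicate 2 lay within the degron range. The means were 8.01% ± 1.63 (SD, n = 6) and 5.65% ± 0.945 (SD, n = 4), with limma passing (log2 change 0.57 ± 0.19, adjusted p = 0.00509) and the exact permutation test not passing after adjustment (p = 0.0286, Benjamini-Hochberg 0.075). Against parental replicates 1 and 2 alone the limma change at Ighd4-1 was 0.29 (adjusted p = 0.453), and with median-of-ratios scaling 0.39 (adjusted p = 0.0622).

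Ighd2-3, lower by 0.57 on the log2 scale (limma adjusted p = 0.00535), held 3.51% to 9.90% in the degron line. The parental runs differed at this segment, with 6.25% and 6.14% in replicates 1 and 2 and 8.92% and 9.07% in replicates 3 and 4. Against replicates 1 and 2 alone the change was −0.18 (limma adjusted p = 0.649). With identical junctions counted once it was −0.059 (limma adjusted p = 0.811), and the call was also lost with median-of-ratios scaling (limma adjusted p = 0.0569) and without voom weights (0.162). The remaining 11 D segments had log2 changes from −0.37 to 0.05, and the most distant D, Gm16968, had 1 junction in the degron line and 2 in the parental line.

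**Figure D5:**
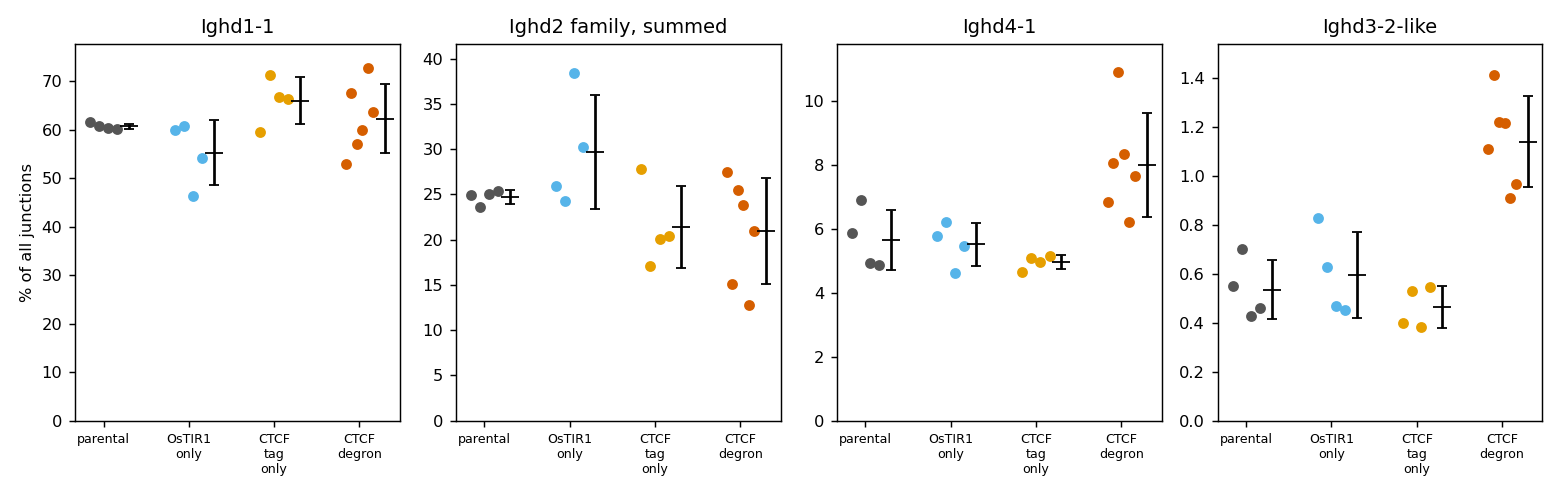
Shares of all junctions (percent) at Ighd1-1, the summed Ighd2 family, Ighd4-1 and the Ighd3-2-like D are plotted by untreated line, with 1 point per replicate and the mean ± SD as a black bar. At the Ighd3-2-like D every degron replicate, from 0.910% up, lies above every replicate of the other lines.

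The D segment inside each VH join was read from the inserted bases. A join was given a D family where an insert of at least 8 bases held an 8-base word found in 1 family only. Ighd1-1 words were in 30.3%, 51.0%, 37.5%, 36.3%, 58.2% and 38.0% of these VH joins in degron replicates 1 to 6 and in 22.0%, 23.5%, 25.3% and 23.8% in the parental replicates. The groups did not overlap. The means were 41.9% ± 10.5 (SD, n = 6) and 23.7% ± 1.36 (SD, n = 4) (exact permutation p = 0.0190, Benjamini-Hochberg 0.0571). Ighd2 words went the other way, with 29.5% ± 8.97 and 45.5% ± 1.12 and the same p and adjusted value. Neither passed the adjusted threshold.

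Split by distance, Ighd1-1 words were in 51.0% ± 8.41 of the degron VH joins beyond 100 kb and in 52.0% ± 4.71 of the parental ones (SD, n = 6 and n = 4, exact permutation p = 0.843). Within the first 100 kb they were in 33.6% ± 9.24 and 21.3% ± 2.07 (exact permutation p = 0.0286, Benjamini-Hochberg 0.3 over 12 such tests). The joins beyond 100 kb were not tested against those within it, and parental replicates 1 and 2 had only 44 and 46 VH joins beyond 100 kb with an insert of at least 10 bases.

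Junctions outside segments and the structure of the joins gave no difference that passed adjustment. The 5 kb upstream of Ighd1-1 held 1.08% ± 0.252 of junctions in the degron line and 1.48% ± 0.110 in the parental line (SD, n = 6 and n = 4, exact permutation p = 0.0143, Benjamini-Hochberg 0.0545). VH-region junctions in plus orientation but away from any segment made up 0.440% ± 0.265 and 0.128% ± 0.0279 of VH junctions (exact permutation p = 0.0429, Benjamini-Hochberg 0.1). The median insert of VH joins was 15.7 ± 1.08 and 13.9 ± 1.03 bases, with the same p and adjusted value. The parental runs differed in this too, with 14.5 and 15 bases in replicates 1 and 2 and 13 in each of the others, and against replicates 1 and 2 alone the difference was 0.92 in place of 1.79 bases (exact permutation p = 0.357). In Ighd1-1 joins, microhomology was used in 16.2% ± 3.94 and 23.6% ± 9.86 (exact permutation p = 0.133). The parental replicates split by run here, at 15.5% and 14.8% in replicates 1 and 2 and 31.0% and 33.2% in replicates 3 and 4.

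The same measures were taken in the lines with 1 part of the system. Neither of these lines shared a run with the degron line, so line and run cannot be told apart in comparisons with it. In the tag-only line 79.6%, 51.3%, 54.3% and 59.6% of VH junctions lay in the first 100 kb, and in the OsTIR1-only line 90.8%, 90.6%, 97.7% and 98.7%. The degron line differed from the OsTIR1-only line (exact permutation p = 0.00476, Benjamini-Hochberg 0.04 over 84 tests), while the difference of −10.3 points from the tag-only line did not pass (exact permutation p = 0.205, Benjamini-Hochberg 0.382). The tag-only line and parental replicates 1 and 2 shared a run, and in that run the tag-only replicates reached at most 79.6% and the parental ones at least 90.6%. Limma called 0 of 54 segments (0%) between the tag-only line and those 2 parental replicates, with 4 at an unadjusted p under 0.05. Those 2 replicates held only 17607 and 14866 junctions, against 107550 to 167608 in the tag-only replicates. Against the same 2 parental replicates limma called 12 of 31 segments for the degron line, which came from another run. Why these counts differ was not tested. What the fit within the run could detect was not tested either, so its 0 does not show that the lines are alike there. Against all 4 parental replicates limma called 25 of 50 segments (50%). The effective number was 17.2 ± 6.13 (SD, n = 4) in the tag-only line, 5.01 below the degron mean (exact permutation p = 0.181), and 4.56 ± 1.17 (SD, n = 4) in the OsTIR1-only line.

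Limma called 3 of 51 tested segments (5.88%) between the degron and tag-only lines. The Ighd3-2-like D was higher in the degron line by 1.29 ± 0.21 on the log2 scale (limma adjusted p = 0.00107), and Ighd4-1 by 0.65 ± 0.16 (limma adjusted p = 0.0190). The third, an Ighv2-6-like VH at 114976040, was lower by 1.64 (limma adjusted p = 0.0328), with 0.00551% against 0.0200% of junctions. No tested VH segment was called higher in the degron line than in the tag-only line, while the median log2 change over the 51 tested segments was 0.33 towards the degron line. At the Ighd3-2-like D the tag-only replicates held 0.399%, 0.530%, 0.383% and 0.548% and the OsTIR1-only replicates 0.830%, 0.628%, 0.470% and 0.452%. Each difference from the degron line had an exact permutation p = 0.00476 (Benjamini-Hochberg 0.04). Against the OsTIR1-only line limma called 19 of 30 segments (63.3%). These comparisons share the degron libraries with the main one, and in each of them the 2 lines came from different runs.

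Levels of the degron line with IAA are given as a description. The VH share with IAA was 27.5% ± 2.78 (SD, n = 6), against 4.07% and 4.61% in the untreated degron and parental lines. The first 100 kb held 43.4% ± 4.65 of VH junctions with IAA. Ighv5-2 held 0.520% ± 0.145 of all junctions with IAA, near the untreated degron mean. Ighv2-3 held 4.86% ± 0.862, Ighv5-12 2.51% ± 0.526 and the Ighv1-76-like segment 2.24% ± 0.581 with IAA, all above every replicate of the untreated lines. Ighd1-1 stood at 27.7% ± 4.96 and Ighd4-1 at 12.4% ± 1.55 with IAA, while the Ighd3-2-like D stood at 1.19% ± 0.299, within the range of the untreated degron line. Without replicates 4 and 5, whose labels disagree on IAA, the VH share was 28.3% ± 3.03 (SD, n = 4), the first 100 kb held 43.8% ± 5.44 of VH junctions and Ighd1-1 29.1% ± 5.72 of all junctions. Ighv5-2 then held 0.534%, Ighv2-3 4.99%, Ighv5-12 2.65%, the Ighv1-76-like segment 2.26%, Ighd4-1 11.6% and the Ighd3-2-like D 1.10%.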

How the data were processed

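The deposited tables hold 1 line per junction read and no count column, and the authors aligned reads to a hybrid of mm9 and AJ851868, per the labels; Bowtie2 is named in the submitters' processing notes, and its version and the filters are not given in the sources used here. Prey positions are hybrid coordinates of chromosome 12. Peaks of junctions gave 177 segments (149 VH, 28 D) by blastn 2.17.0 against mm9, 56 with a symbol of their own. Junctions within 100 bp were assigned to a segment. Replicate measures are means of the a and b shares, and segment shares come from their sum. Groups and replicate numbers came from titles. Measures were compared with two-sided exact permutation tests, adjusted over 42 measures. Segments were fitted with limma 3.58.1 (voom, R 4.3.3) on tallies with library totals as scale, pseudocount 0.5 and a minimum mean of 10 junctions, and the fit was tested on simulated data. Named segments are every tested D, the nearest and farthest D, the first VH used in every parental replicate, the 4 most used VH of each line, and up to 10 higher and 5 lower called VH without overlap. Members and lists were chosen with earlier results of these data known. The 12 off-target lists were not used.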

Additional observations from a re-analysis of the deposited data

Results flagged for a closer look

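In groups of 4 or 6 replicates, 12 of 142 groups of values held a replicate set apart from the rest by a wide gap, where chance gives about 1 in 20. That rate is only a rough guide here. The groups overlap, as the first 100 kb contains Ighv5-2 and the Ighv2-2-like and Ighv5-4-like segments. Some values also move in steps, such as single junctions and median inserts. Degron replicate 1 stood apart in 6 of them. Its junctions in the first 100 kb made up 4.48% of all junctions, with the nearest replicate at 1.94%. Its share at Ighv5-2 was 1.41% (nearest 0.659%), at the Ighv2-2-like segment 0.724% (nearest 0.344%), at the Ighv5-4-like segment 0.694% (nearest 0.248%) and at Ighd6-1 0.231% (nearest 0.0911%). Of its VH joins 72.4% had an insert of at least 10 bases, against 80.9% in the nearest replicate. In degron replicate 3 the mean loss of prey bases in Ighd1-1 joins was 3.34 bases (nearest 3.90). Degron replicate 6 held the 1 junction at Gm16968, 0.00170% of its total, where the other degron replicates had 0.

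In parental replicate 4, 0.334% of junctions lay on other chromosomes (nearest 0.284%). In parental replicate 1, 0.662% of VH junctions were in minus orientation (nearest 1.36%). Parental replicate 2 had a median insert of 2.5 bases in Ighd1-1 joins, with 2 in the others, and 0.162% of its VH joins were blunt (nearest 0.831%).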

How the results depend on the processing

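Across the alternatives, 111 values of the main comparisons kept their direction and side of the threshold or stayed within 1.5 times, while 38 counts moved further, 2 lost significance and 1 turned sign. Of the named segments' log2 changes 516 kept both, 16 lost and 10 gained a call and 33 turned sign. Of the single measures 399 kept both, 61 lost and 5 gained significance and 7 turned sign. The difference in the share of VH junctions within 100 kb ran from −44.8 to −38.1 points and that in effective number from 15.7 to 18.9 when each replicate was left out. The VH share turned to 0.185 points against parental replicates 1 and 2 alone and ran from −1.04 to −0.25 without each replicate. Same-numbered samples did not deviate together (correlations −0.135 to −0.328), so the numbers do not pair them. With a replicate block the difference within 100 kb was −39.3 and in effective number 15.9, each at p = 0.125, the smallest that 4 pairs allow by an exact sign-flip permutation test, and 12 segments were called in place of 19. No block count was possible for the distance intervals, D shares, junction classes and join structure.

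The 19 called segments became 12 with a libraries only, 12 with b libraries only, 12 against parental replicates 1 and 2, 48 with a minimum mean of 3 junctions, and 16 to 22 without each replicate. Within VH junctions the 17 became 10 (a), 8 (b), 47 (minimum of 3) and 14 to 18 without each replicate. They became 13 against parental replicates 1 and 2, 13 with the replicate block and 14 with median-of-ratios scaling. At an unadjusted p under 0.05, the 5 distance intervals became 3 against either parental run alone. The 2 D shares became 1 with identical junctions counted once, 1 against either parental run, and 1 to 3 without each replicate. The 2 junction classes became 1 (a), 0 with identical junctions counted once, 0 against either run and 0 to 2 without each replicate. The 1 measure of join structure became 0 (a), 2 (b), 2 with identical junctions counted once, 0 against parental replicates 1 and 2, 8 against replicates 3 and 4, and 0 to 4 without each replicate. The cause was not tested.

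Signs turned for small changes. With identical junctions counted once, the JH cluster share became −0.111, the median Ighd1-1 insert −0.167, Ighv2-3 −0.31 (log2), the D at 114705399 0.013 (log2), and the VH share against the tag-only line −2.65 (−0.149 to 0.637 without each replicate). With the block, Ighd1-1 became −1.32 points (−0.480 to 3.46 without each replicate) and −0.030 (log2), 114705399 0.090, 114710077 0.11 and Ighd6-1 0.56. With median of ratios Ighd1-1 became −0.047 and 114700407 −0.034. With a only 114700407 became −0.046, and with b only Ighd6-1 0.51. Against parental replicates 1 and 2, microhomology became 1.02 points and Ighd6-1 0.64. Against replicates 3 and 4, 114705399 became 0.10, 114708573 0.18 and 114710077 0.067. The D at 114708573 became 0.050 with a minimum of 3 and 0.12 with a pseudocount of 2, and Ighd6-1 0.18 without voom weights. Without each replicate, log2 changes ran from −0.019 to 0.16 at 114700407, −0.21 to 0.10 at 114705399, −0.33 to 0.26 at 114708573, −0.19 to 0.081 at 114710077 and −0.44 to 0.15 at Ighd6-1. The alternatives against the tag-only and OsTIR1-only lines were chosen after seeing the data. Parental replicates 1 and 2, with 609 and 640 VH junctions, limit what can be measured at single deep segments.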

Other observations

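The VH share was higher in the a library in 6 of 6 degron pairs, with means of 4.68% and 3.45% (two-sided exact sign-flip permutation test, p = 0.0313, Benjamini-Hochberg 0.0795, which does not pass), and in 3 of 4 parental pairs, with means of 4.85% and 4.37% (exact p = 0.25). The a to b difference did not pass between the lines after adjustment (exact permutation p = 0.0143, Benjamini-Hochberg 0.0889).

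On chromosome 12 outside the span from the JH cluster to the last VH segment, most junctions lay in 1 window of 10 kb. This window, hybrid positions 114460001 to 114470000, held 460 of 512 such junctions in the degron line and 428 of 516 in the parental line. The recombining end of JH4 is at hybrid position 114671127. All junctions below the JH cluster were counted in this class, so the window is not shown to lie outside Igh. As a share of all junctions the window held 0.195% ± 0.142 (SD, n = 6) and 0.0613% ± 0.0356 (SD, n = 4), a difference that did not pass (exact permutation p = 0.114).

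Of the VH joins with an insert of at least 10 bases in the untreated degron replicates, 0.0810% to 1.74% recurred in the IAA-treated libraries of the same run.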
